A study of Homo sapiens with 24 samples.

Results

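The genes described here encode the 7 IGF binding proteins (*IGFBP1* to *IGFBP7*) and the 3 receptors for IGFs and insulin (*IGF1R*, *IGF2R* and *INSR*), chosen by gene symbol. All 10 were found in the table of transcript counts and all 10 had enough counts to be tested, among 19897 genes or unassigned transcripts tested. Counts of a gene's transcripts were summed, and each sum is called a gene here. The cells were A549, an established line derived from a human lung adenocarcinoma. They were exposed to 100 nM dexamethasone (dex), a synthetic glucocorticoid (GC) that activates the glucocorticoid receptor (GR), or to an equal volume of its vehicle ethanol (EtOH, 0.02% of the medium). RNA with poly-A tails was taken at 6 times of exposure (1, 3, 5, 7, 9 or 11 h), and the labels give 2 biological replicates per treatment and time, 24 libraries in all. All cells were grown in medium with serum, and no genotype or strain differed between the groups.

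IGF1 and IGF2 are growth factors related to insulin. They signal for growth and survival through the tyrosine kinase IGF1R and, with lower affinity or in some isoforms, through the insulin receptor INSR, which hand the signal to adaptor proteins, PI3K and AKT. IGF2R, also known as the mannose 6-phosphate receptor, has no kinase: it takes up and degrades IGF2 and sorts lysosomal enzymes. The secreted binding proteins hold IGFs in the medium or serum, where they can keep the ligand from its receptors or prolong its life, and several are cut by proteases that free the ligand.

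The libraries held between 6708864 and 13748598 counts. *KRT8* and *KRT18*, keratins of simple epithelia, were abundant, and the summed CPM (counts scaled to library size with TMM factors) of 5 epithelial markers lay between 3241 and 5222 with EtOH and between 3872 and 10644 with dex. Both keratins, which make up most of this sum, rose from 3 h on, while *EPCAM* was called lower at 5, 7 and 9 h (-0.84, -0.96 and -0.72 on the log2 scale) and *KRT19* at 5 and 9 h (-0.57 and -1.04). The remaining marker, *CDH1*, was called higher at 5 and 7 h (0.65 and 0.54). Of 8 markers of alveolar type 2 cells, 5 had at most 3 counts in any library, while *ABCA3*, a lipid transporter, had 206 to 541 counts per library and was called higher with dex at 3 h (0.48, adjusted p = 0.0388, edgeR) and 7 h (0.29, adjusted p = 0.0737). The 8 summed to between 23.97 and 36.8 CPM with EtOH and between 28.8 and 49.998 CPM with dex. Markers of other cells summed to at most 3.89 CPM for leukocytes and 1.06 CPM for endothelial cells. The endothelial sum covers 3 of 4 listed markers, as *PECAM1* was not found among the summed genes. Fibroblast markers summed to between 12.5 and 21.6 CPM with EtOH and between 6.72 and 25.3 CPM with dex. Of 6 fibroblast markers 3 could be tested, and the collagen gene *COL1A1* was called higher with dex at 3 h and lower at 5, 7 and 9 h (6.89 against 15.8 mean CPM at 5 h); its part in the results that follow was not tested. The 4 known GC targets with enough counts (*TSC22D3*, *FKBP5*, *PER1* and *KLF9*) rose with dex at every time point, except *FKBP5* at 1 h (adjusted p = 0.152, edgeR).

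**Figure D1:**
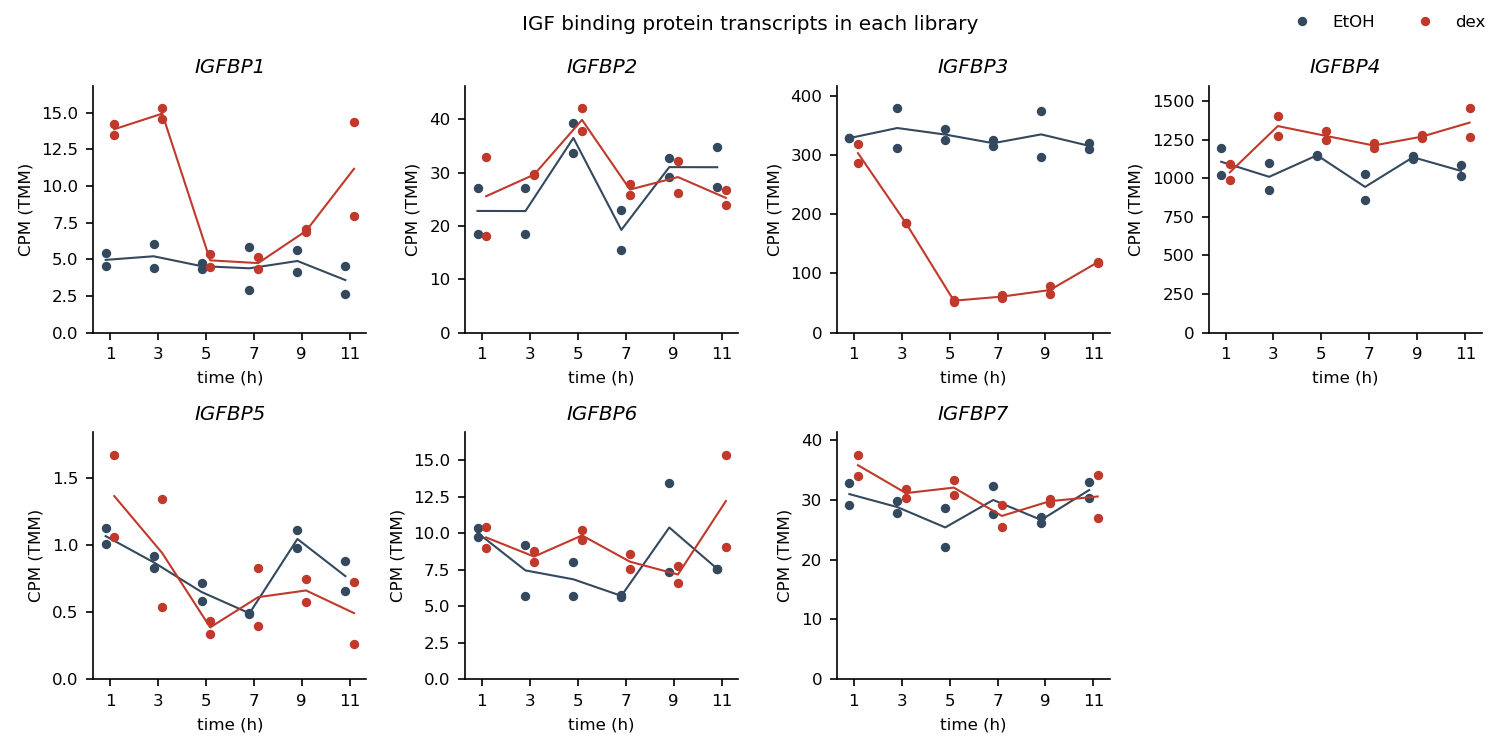
Normalized level (CPM after TMM scaling, linear axis from 0, different for each gene) of the 7 IGF binding protein genes against time in hours. Points are libraries and lines join the means of 2 libraries for EtOH (dark) and dex (red). *IGFBP3* with dex was between 52.2 and 55.6 CPM at 5 h against 325 and 344 CPM with EtOH, and *IGFBP1* with dex stood above EtOH at 1, 3, 9 and 11 h.

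Levels can be compared between genes only per length, and with a limit. How reads matching several transcripts were placed is not known. Genes with several counted transcripts (6 for *IGFBP3* and for *IGF1R*) may thus not compare evenly with those with 1 (*IGFBP4* and *IGFBP7*). Divided by the length of each gene's most counted transcript, the median level over the 12 EtOH libraries was highest for *IGFBP4*, with 495 CPM per kb (range 391 to 543). *IGFBP3* came next with 140 CPM per kb (127 to 163), then *IGF1R* with 28.7 (25.6 to 33.5), *IGFBP7* with 20.3 (15.5 to 23.1) and *IGFBP2* with 18.9 (10.8 to 27.3). *IGF2R* had 7.94 CPM per kb (7.02 to 9.08), *IGFBP6* 6.47 (4.82 to 11.5), *IGFBP1* 2.74 (1.59 to 3.64), *INSR* 1.44 (1.17 to 1.76) and *IGFBP5* 0.138 (0.0788 to 0.182). The neighbours *IGFBP7* and *IGFBP2*, *IGF2R* and *IGFBP6*, and *IGFBP1* and *INSR* overlapped between libraries, while every other pair of neighbours in this order did not. *IGFBP5* was counted 3 to 17 times per library, at which depth only a large change could be seen.

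Upstream sequences were available for 8 of the 10 genes in the RefSeq promoter table (GRCh38.p14), all but *IGFBP1* and *IGFBP7*. The 250 bases before the transcription start are printed for the binding protein that fell most with dex (*IGFBP3*, chr7:45921273-45921522, minus strand), for the most abundant one (*IGFBP4*, chr17:40443200-40443449, plus strand) and for the receptor that rose most (*INSR*, chr19:7294415-7294664, minus strand). They are written 5′ to 3′ on the strand of the gene, and capitals mark GC boxes (GGGCGG on either strand, overlapping ones included) and TATA motifs (TATAAA or TATATA).
IGFBP3: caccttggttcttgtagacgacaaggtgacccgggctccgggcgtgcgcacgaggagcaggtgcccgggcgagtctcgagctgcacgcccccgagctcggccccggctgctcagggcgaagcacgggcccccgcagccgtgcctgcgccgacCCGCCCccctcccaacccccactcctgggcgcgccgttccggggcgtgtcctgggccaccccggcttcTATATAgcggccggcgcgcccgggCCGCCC
IGFBP4: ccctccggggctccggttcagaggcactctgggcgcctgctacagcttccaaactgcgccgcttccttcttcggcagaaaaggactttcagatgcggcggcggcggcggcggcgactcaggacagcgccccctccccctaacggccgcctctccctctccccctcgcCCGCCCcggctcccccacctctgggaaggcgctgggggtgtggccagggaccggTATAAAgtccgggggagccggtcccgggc
INSR: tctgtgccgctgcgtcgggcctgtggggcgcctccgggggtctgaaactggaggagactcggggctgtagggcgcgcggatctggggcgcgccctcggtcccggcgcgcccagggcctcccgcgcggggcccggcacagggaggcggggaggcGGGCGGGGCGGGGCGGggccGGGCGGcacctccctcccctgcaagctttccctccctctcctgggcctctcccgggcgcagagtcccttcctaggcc

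A TATA motif lay 30 to 25 bases before the start of *IGFBP3* (TATATA, found in 3.73% of 35116 promoters) and 29 to 24 bases before that of *IGFBP4* (TATAAA, in 10.7%). The *INSR* window held no TATA motif and 4 GC boxes, 3 of which overlapped one another. GC boxes occurred upstream of 7 of the 8 genes and in 42.6% of all promoters. The palindrome bound by GR, in which AGAACA is followed after any 3 bases by its reverse complement, was found upstream of none of the 8 (and of 0.00285% of all promoters), and its half-site AGAACA, searched on both strands, only upstream of *IGFBP2* (12.4% of all promoters). The *IGFBP3* window lies inside the gene's GENCODE span, which starts farther upstream than the RefSeq start. These windows cover 250 bases and say nothing of binding elsewhere.

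**Figure D2:**
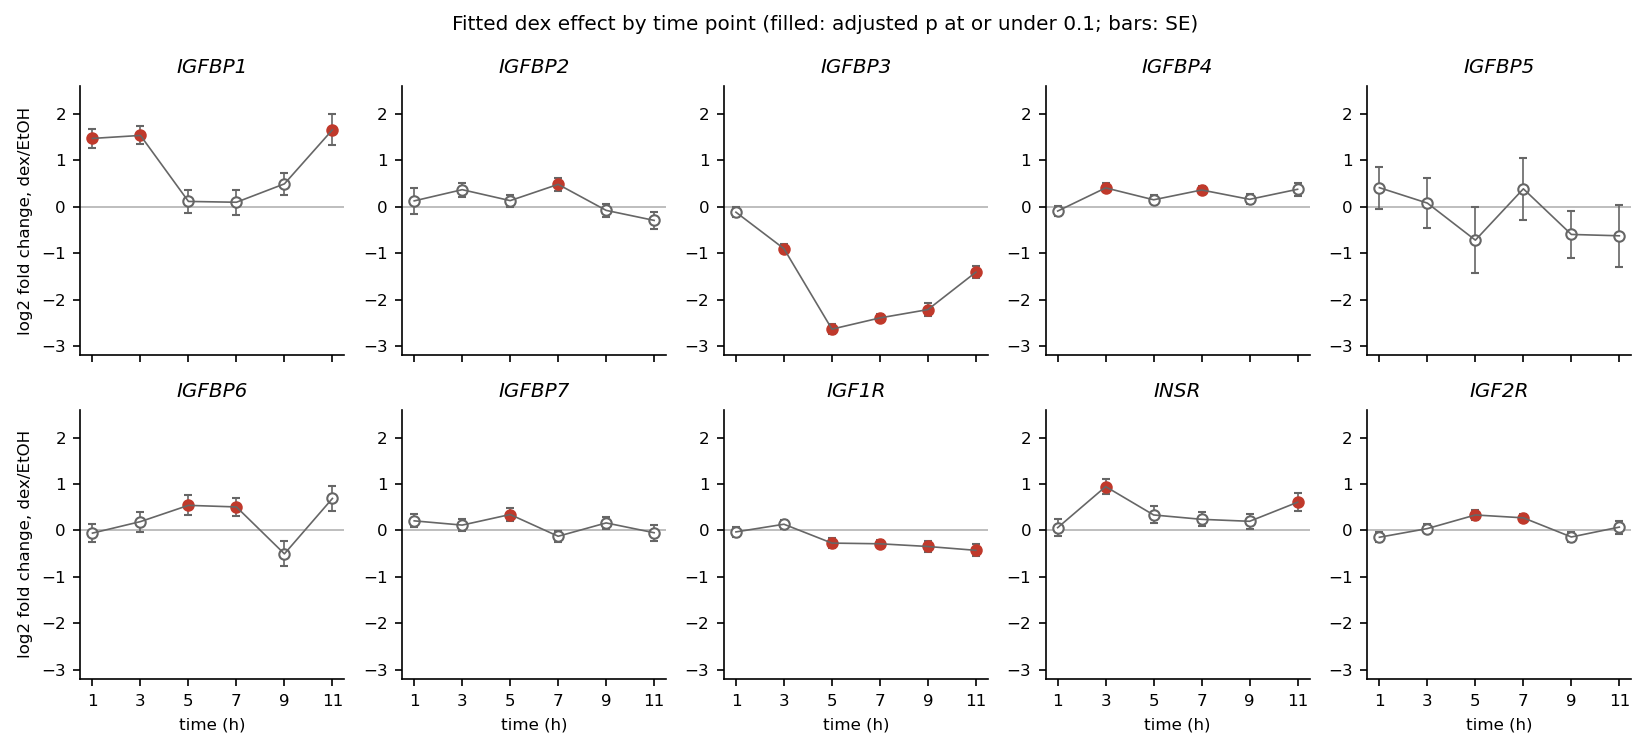
Fitted log2 fold change of dex over EtOH at each time point for the 10 genes, on a common axis. Filled points had an adjusted p at or under 0.1, open points did not, and bars are standard errors. *IGFBP3* was lowest at 5 h (-2.63), *IGFBP1* was near 0 at 5 and 7 h, and *IGFBP5* has the longest bars.

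A gene was called changed at an adjusted p at or under 0.1 (quasi-likelihood F-test of edgeR, 2 dex against 2 EtOH libraries at each time point, with p-values adjusted by Benjamini and Hochberg over all genes tested). At 1 h, 1 of the 10 genes was called (0.824% of all genes tested), and at 3 h 4 of 10 (12.9% of all genes). At 5 h the count was 5 (23.1% of all genes), at 7 h 6 (25.8%), at 9 h 2 (18.1%) and at 11 h 4 (8.68%). The spread between replicates differed between times, with a biological coefficient of variation of 6.48% at 7 h, 10.1% at 9 h and 12.7% at 11 h. Counts of calls thus do not compare the size of the response: *IGFBP4* was called at 7 h with 0.36 on the log2 scale and not at 11 h with 0.38. From 3 h to 7 h the genes that rose outnumbered those that fell, with 3 against 1, 3 against 2 and 4 against 2. At 9 h both called genes fell, and at 11 h 2 rose and 2 fell. Among all genes, 0.488% rose and 0.337% fell at 1 h, 7.85% and 5.02% at 3 h, 11.4% and 11.7% at 5 h, 13.4% and 12.4% at 7 h, 9.31% and 8.78% at 9 h and 5.39% and 3.29% at 11 h. Groups of 2 libraries often fail to overlap: this was so for 4 of the 10 genes at 1 h (34.8% of all genes), 6 at 3 h (50.6%), 7 at 5 h (54.4%), 7 at 7 h (57%), 8 at 9 h (53.9%) and 7 at 11 h (45.1%). *IGFBP1*, *IGFBP3*, *IGFBP6*, *IGF1R* and *IGF2R* were called at 2 or more consecutive time points, a criterion that 18.8% of all genes met, and *IGFBP5* was called at no time point, as was the case for 58.6% of all genes. The smallest unadjusted p of *IGFBP5* was 0.260, at 9 h, and DESeq2 gave it no adjusted p.

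*IGFBP3*, the main IGF carrier of serum (chr7:45912245-45921874 on GRCh38, minus strand), fell from 3 h on and by more than any other gene of the group. At 1 h it had 287 and 319 CPM in the dex libraries and 329 and 329 CPM in the EtOH libraries, a difference that did not pass the test (adjusted p = 0.936). At 3 h the dex libraries were at 185 and 185 CPM, against 379 and 313 CPM with EtOH. At 5 h they were at 52.2 and 55.6 CPM, counted 478 and 496 times, against 325 and 344 CPM, counted 3167 and 4128 times. Replicates of one group lay closer to each other than to the other treatment at every time point from 3 h on.
At 7 h *IGFBP3* had 63.2 and 58.4 CPM with dex and 325 and 315 CPM with EtOH, and at 9 h 64.5 and 79.2 CPM with dex against 296 and 374 CPM. By 11 h the dex libraries were at 119.9 and 118 CPM, while EtOH was at 320.2 and 311 CPM. The dex level thus reached its lowest point at 5 h and had risen again at 11 h without coming back to the EtOH range.
The log2 fold changes of *IGFBP3* were -0.90 ± 0.10 (SE, n = 2 against 2) at 3 h, -2.63 ± 0.11 at 5 h, -2.39 ± 0.08 at 7 h, -2.21 ± 0.14 at 9 h and -1.41 ± 0.13 at 11 h. At 5 h this was a 6.21-fold lower level (adjusted p = 5.84e-24, edgeR), and only 32 of 19897 genes had a lower log2 fold change. Its call held under every alternative tried at each of these 5 time points. In bulk RNA, a lower share of expressing cells and less RNA per cell cannot be told apart.

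Neighbouring time points were also compared, a test added after the values had been seen. The dex effect on *IGFBP3* moved by -0.78 ± 0.15 on the log2 scale from 1 to 3 h (adjusted p = 0.00237) and by -1.73 ± 0.16 from 3 to 5 h (adjusted p = 5.50e-08, edgeR fit over 24 libraries). It then rose by 0.80 ± 0.16 from 9 to 11 h (adjusted p = 0.0279), a step at which 0.533% of all genes were called. The steps from 5 to 7 h and from 7 to 9 h did not pass the test (0.24 ± 0.16 and 0.18 ± 0.16), where 0% and 0.0653% of all genes did.
Of the counts of *IGFBP3*, the most counted transcript held between 50.1% and 56.5% in every library and the next one between 37.5% and 41.9%. How reads shared by such similar transcripts were placed is not known, so these shares are not a measure of the transcripts themselves.

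*IGFBP1*, a small binding protein whose production in the liver is known to rise with GCs and to fall with insulin, rose early, returned to the EtOH level and rose again. It lies 18576 bases from *IGFBP3* on chromosome 7 (chr7:45888357-45893668, plus strand), with the 3′ ends of the genes facing each other. At 1 h the dex libraries had 13.5 and 14.2 CPM, against 4.52 and 5.40 CPM with EtOH, and at 3 h 14.6 and 15.3 CPM against 6.02 and 4.40 CPM. At 5 h dex gave 4.48 and 5.38 CPM and EtOH 4.32 and 4.75 CPM, and at 7 h 4.33 and 5.16 CPM against 5.83 and 2.94 CPM. The groups were thus well apart at the early times and overlapped at 5 and 7 h.
At 9 h *IGFBP1* had 7.04 and 6.83 CPM with dex against 5.62 and 4.15 CPM, and at 11 h 14.4 and 7.96 CPM against 4.53 and 2.63 CPM. The dex libraries were above the EtOH libraries at both times, though the replicates at 11 h differed widely from each other.
The gene rose by 2.77-fold at 1 h (log2 fold change 1.47 ± 0.21, adjusted p = 0.000407) and by 2.90-fold at 3 h (1.54 ± 0.19, adjusted p = 4.68e-07, edgeR). Only 66 of 19897 genes had a higher log2 fold change at 1 h. Its changes at 5, 7 and 9 h were 0.11 ± 0.26, 0.10 ± 0.27 and 0.49 ± 0.24, none of which passed the test. At 11 h it was 3.15-fold higher (1.66 ± 0.33, adjusted p = 0.00644). Without EtOH replicate 1 at 9 h the change there passed the test (0.73, adjusted p = 0.0473), and the calls at 1, 3 and 11 h held under every alternative.
Between 3 and 5 h the dex effect on *IGFBP1* dropped by 1.42 ± 0.40 on the log2 scale (adjusted p = 0.0432, a step called for 6.01% of all genes). The later rise from 9 to 11 h, 1.17 ± 0.42, did not pass the test (adjusted p = 0.217). The counts of *IGFBP1*, 24 to 170 per library, were spread over 3 transcripts of similar length that held 36.7%, 33.4% and 29.9% of them, with the same limit on how shared reads were placed.

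*IGFBP4*, an inhibitor of IGF action that the protease PAPPA cuts (chr17:40443461-40457731, plus strand), rose slightly from a high level. At 3 h the dex libraries had 1401 and 1273 CPM, against 921 and 1096 CPM with EtOH, and at 7 h 1231 and 1192 CPM against 860.1 and 1026 CPM. The dex libraries were above the EtOH libraries at every time point but 1 h, when the groups overlapped (985 and 1089.8 CPM against 1017 and 1194 CPM).
It was called at 3 h (1.33-fold, log2 fold change 0.41 ± 0.10, adjusted p = 0.00499) and at 7 h (1.28-fold, 0.36 ± 0.08, adjusted p = 0.000545, edgeR). The changes at 5 and 9 h were 0.15 ± 0.10 and 0.16 ± 0.11, and that at 11 h, 0.38 ± 0.14, missed the threshold (adjusted p = 0.154). The call at 3 h was lost without EtOH replicate 1 (0.29, adjusted p = 0.226) and that at 7 h without dex replicate 1 (0.34, adjusted p = 0.109). At 11 h the gene passed without dex replicate 1 (0.47, adjusted p = 0.000418), without dex replicate 2 (0.28, adjusted p = 0.0984), in the fit over 24 libraries (adjusted p = 0.0132) and with a replicate block (0.0445). The step from 1 to 3 h, 0.50 ± 0.15, passed the test (adjusted p = 0.0606, where 4.39% of all genes did).

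*IGFBP6*, which prefers IGF2 over IGF1, was called at 5 and 7 h. At 5 h it had 9.50 and 10.2 CPM with dex against 8.01 and 5.67 CPM with EtOH, and at 7 h 8.56 and 7.53 CPM against 5.64 and 5.78 CPM. The log2 fold changes were 0.54 ± 0.21 (adjusted p = 0.0721) and 0.51 ± 0.20 (adjusted p = 0.0746, edgeR). Each of these calls held under 4 of 12 alternatives. Both were lost with DESeq2 (adjusted p = 0.444 and 0.518), in the fit over 24 libraries (0.200 and 0.285) and with the most counted transcript (0.215 and 0.601), that at 5 h also without a filter (0.108), and leaving out any library but EtOH replicate 1 at 5 h, or any library at 7 h, also ended them (adjusted p between 0.107 and 0.543). At 9 h an EtOH library stood apart, with 13.5 CPM against 7.31 CPM in the other, and the change was -0.50 ± 0.27. Without the lower of these, EtOH replicate 1, it passed the test as a fall (-0.88, adjusted p = 0.000373), as it did with a replicate block (-0.54, adjusted p = 0.0474). At 11 h dex replicate 2 was the high one, with 15.4 CPM against 9.04 CPM, beside 7.56 and 7.56 CPM with EtOH, and the change of 0.69 ± 0.26 missed the threshold (adjusted p = 0.177). It passed under 4 of 12 alternatives: without dex replicate 1 (1.02, adjusted p = 9.63e-06), without a filter (0.0589), in the fit over 24 libraries (0.0954) and with a replicate block (0.0730).

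*IGFBP2*, which carries an integrin-binding motif, differed between replicates as much as between treatments at most times. It was called only at 7 h, with 27.9 and 25.8 CPM with dex against 15.5 and 23.0 CPM with EtOH (log2 fold change 0.48 ± 0.14, adjusted p = 0.0157, edgeR). That call held under 6 of 12 alternatives and was lost with DESeq2 (adjusted p = 0.192), with the fit over 24 libraries (0.257), with the most counted transcript alone (0.392) and without dex replicate 1 (0.294), dex replicate 2 (0.137) or EtOH replicate 1 (0.229). Calls appeared in 3 cases when a library was left out: at 1 h without dex replicate 1 (0.52, adjusted p = 0.0927), at 3 h without EtOH replicate 2 (0.67, adjusted p = 0.00558) and at 11 h without dex replicate 2 (-0.37, adjusted p = 0.0743).
*IGFBP7*, a relative that binds IGFs weakly, was called at 5 h, with 30.8 and 33.4 CPM with dex against 28.7 and 22.2 CPM with EtOH (0.34 ± 0.14, adjusted p = 0.0825, edgeR). The call held under 6 of 12 alternatives. It was lost with DESeq2 (adjusted p = 0.404), without a filter (0.142), with the most counted transcript (0.115), at a threshold of 0.05, without dex replicate 2 (0.300) and without EtOH replicate 2 (log2 fold change 0.16, adjusted p = 0.636). At the other times its level stayed between 25.5 and 37.6 CPM, and log2 fold changes between -0.13 and 0.21 did not pass the test.
*IGFBP5*, which binds extracellular matrix, had log2 fold changes between -0.72 and 0.41 with standard errors between 0.45 and 0.71. Changes of that size were not detectable at its counts.

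**Figure D3:**
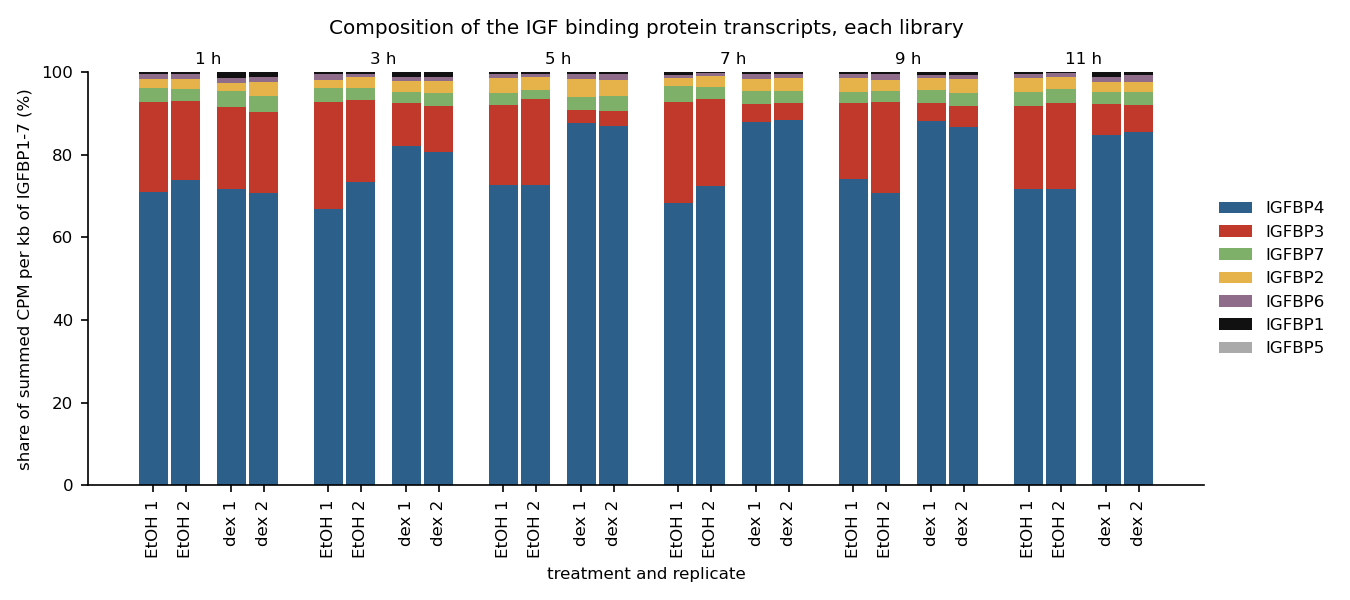
Share (%) of each binding protein gene in the summed CPM per kb of *IGFBP1* to *IGFBP7*, one bar per library, ordered by time, treatment and replicate. *IGFBP3* (red) took between 18.5% and 26.0% in the EtOH libraries and between 3.33% and 3.67% in the dex libraries at 5 h, and *IGFBP4* (blue) filled most of every bar.

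As a share of all binding protein transcripts per kb, *IGFBP3* made up between 18.5% and 26.0% in the 12 EtOH libraries. With dex the share was 19.7% and 19.8% at 1 h, 10.3% and 11.1% at 3 h, 3.33% and 3.67% at 5 h and 6.58% and 7.60% at 11 h. The dex libraries from 3 h on were thus all below the EtOH libraries, and those at 1 h were not. *IGFBP4* held between 66.7% and 74.2% with EtOH and between 80.6% and 88.5% with dex from 3 h on. *IGFBP1*, in spite of its rise, never exceeded 1.31%.
The summed level of the 7 genes changed little beside this. It lay between 573 and 735 CPM per kb with EtOH and between 612 and 775 CPM per kb with dex, and the dex libraries were above EtOH at 3 h and below at 5 and 9 h, with overlap at 1, 7 and 11 h. Shares and sums are descriptions without a test, and they carry the same limit on how shared reads were placed.

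**Figure D4:**
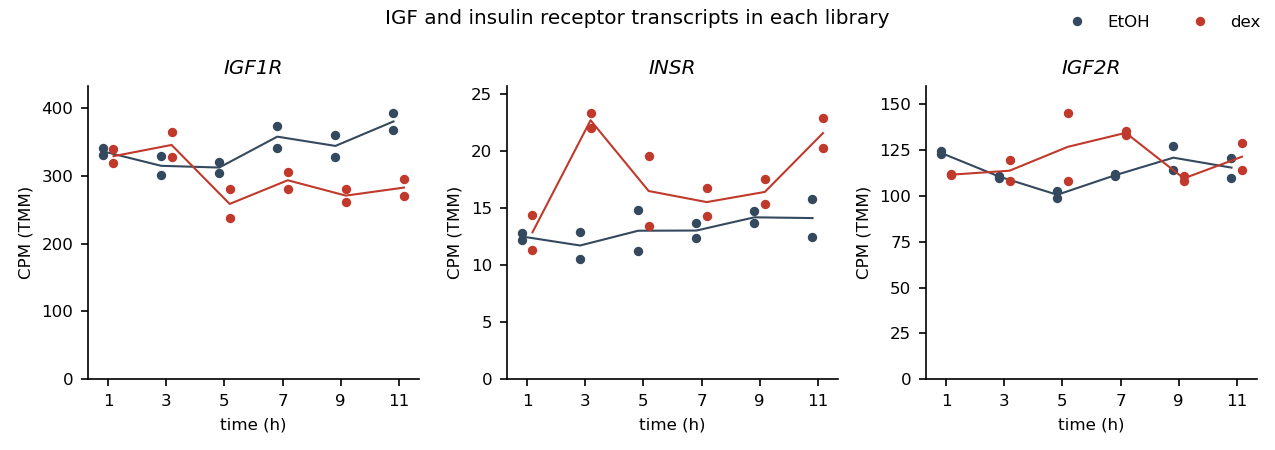
Normalized level (CPM after TMM scaling, linear axis from 0, different for each gene) of *IGF1R*, *INSR* and *IGF2R* against time in hours. Points are libraries and lines join the means of 2 libraries for EtOH (dark) and dex (red). From 5 h on both dex libraries of *IGF1R* were below both EtOH libraries, and *INSR* with dex was highest at 3 and 11 h.

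Of the receptors, *IGF1R* (chr15:98648539-98964530, plus strand) fell slightly and late. At 1 h it had 318 and 339.5 CPM with dex against 331 and 341 CPM with EtOH, and at 3 h 364 and 327 CPM against 301 and 329 CPM. At 5 h the values were 279.8 and 237 CPM against 304 and 320.1 CPM, and at 7 h 281 and 306 CPM against 342 and 374 CPM. At 9 h they were 261 and 280.5 CPM against 361 and 327 CPM, and at 11 h 269 and 296 CPM against 367 and 393 CPM. The treatments overlapped at 1 and 3 h and were apart at each of the 4 later times.
The log2 fold changes of *IGF1R* were -0.27 ± 0.10 at 5 h (adjusted p = 0.0582), -0.29 ± 0.07 at 7 h (adjusted p = 0.00425), -0.35 ± 0.11 at 9 h (adjusted p = 0.0512) and -0.43 ± 0.13 at 11 h (adjusted p = 0.0790, edgeR), so that the gene was 1.35-fold lower at 11 h. Calls at 4 or more time points were made for 7.42% of all genes. The direction held under every alternative at these times, but the calls held under 7 of 12 alternatives at 5 h, 11 at 7 h, 7 at 9 h and 8 at 11 h. DESeq2 missed the threshold at 5 and 9 h (adjusted p = 0.129 and 0.115), and so did the most counted transcript at 5, 9 and 11 h (0.226, 0.170 and 0.101). Leaving out 1 library ended the call at 5 h (dex replicate 2, 0.503, or EtOH replicate 2, 0.252), at 7 h (dex replicate 1, 0.244), at 9 h (dex replicate 1, 0.550, or dex replicate 2, 0.342) and at 11 h (EtOH replicate 1, 0.535, or EtOH replicate 2, 0.779).

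*INSR*, the insulin receptor (chr19:7112255-7294034, minus strand), rose at 3 h and again at 11 h. At 3 h it had 23.4 and 22.0 CPM with dex against 10.5 and 12.9 CPM with EtOH, and at 11 h 22.9 and 20.3 CPM against 12.5 and 15.8 CPM. In between, the dex libraries were at 13.4 to 19.6 CPM and the EtOH libraries at 11.2 to 14.8 CPM, and at 1 h the groups overlapped (14.4 and 11.4 CPM against 12.8 and 12.2 CPM).
The rise at 3 h was 1.92-fold (log2 fold change 0.94 ± 0.16, adjusted p = 4.68e-05, edgeR) and held under every alternative. That at 11 h was 1.52-fold (0.61 ± 0.20) and close to the threshold (adjusted p = 0.0982), and it held under 5 of 12 alternatives: DESeq2 gave an adjusted p of 0.287, and it was lost without EtOH replicate 1 (0.842) or EtOH replicate 2 (0.301). The changes at 5, 7 and 9 h, 0.33 ± 0.18, 0.24 ± 0.15 and 0.20 ± 0.17, did not pass, and without dex replicate 2 the one at 5 h did (0.58, adjusted p = 0.0344). From 1 to 3 h the dex effect on *INSR* rose by 0.88 ± 0.26 (adjusted p = 0.0599), and the later steps did not pass the test.

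*IGF2R* (chr6:159969099-160113507, plus strand) was higher at 5 h, with 146 and 108 CPM with dex against 98.6 and 103 CPM, and at 7 h, with 133 and 136 CPM against 111 and 112 CPM. The log2 fold changes were 0.33 ± 0.11 (adjusted p = 0.0371) and 0.27 ± 0.08 (adjusted p = 0.0119, edgeR). The calls held under 8 and 9 of 12 alternatives. The value at 5 h rested on dex replicate 1, without which it was 0.10 (adjusted p = 0.706), and the call was also lost without EtOH replicate 1 (0.215) or EtOH replicate 2 (0.142) and with DESeq2 (0.182). At 7 h it was lost without dex replicate 1 (0.134) or dex replicate 2 (0.164) and in the fit over 24 libraries (0.1001). At 1 and 9 h the dex libraries were slightly below EtOH (-0.15 ± 0.11 and -0.14 ± 0.11), differences that did not pass, although the one at 9 h did without EtOH replicate 1 (-0.22, adjusted p = 0.0956).
Per kb of its most counted transcript, *IGF1R* stood at 16.5 to 22.5 times the level of *INSR* in the EtOH libraries, with the same limit on shared reads. With dex this ratio was 16.9 and 22.8 at 1 h, 11.3 and 11.9 at 3 h, 10.9 and 13.5 at 5 h and 8.98 and 11.1 at 11 h. All dex libraries from 3 h on had a lower ratio than any EtOH library.

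Across the 6 time points in one edgeR fit over 24 libraries, the dex effect differed between times for 3 of the 10 genes, *IGFBP3* (adjusted p = 8.80e-12), *IGFBP1* (0.00999) and *IGF1R* (0.0352), while 13.8% of all genes passed. *IGFBP4* (0.102), *IGF2R* (0.108), *INSR* (0.126) and *IGFBP6* (0.174) missed the threshold at unadjusted p-values under 0.05. The mean effect over the time points passed for 5 genes (34% of all genes did), with -1.61 ± 0.05 for *IGFBP3*, 0.90 ± 0.12 for *IGFBP1*, 0.40 ± 0.07 for *INSR*, 0.23 ± 0.04 for *IGFBP4* and -0.20 ± 0.04 for *IGF1R*.
With EtOH alone, edgeR called none of the 10 genes as different between time points (0.0704% of all genes were). Without adjustment 2 genes had p under 0.05, *IGFBP2* (0.0114) and *IGFBP6* (0.0246), and DESeq2 called *IGFBP2*. *IGFBP2* was at 33.7 and 39.4 CPM in the EtOH libraries at 5 h and at 15.5 and 23.0 CPM at 7 h.

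The genes whose log2 CPM followed a member most closely over the 24 libraries, all of which share the same 2 treatments and 6 times, were *CLDN2* (Pearson r = 0.988) and *POLD3* (0.987) for *IGFBP3*. For *IGFBP1* they were *RHOU* (0.868) and *F3* (0.853), with log2 fold changes of 0.13 and 0.31 at 5 h and of 1.09 and 1.09 at 11 h. *CBX5* (0.885) and *THSD7A* (0.864) followed *IGF1R*, *SPEN* (0.876) and *HUWE1* (0.869) followed *IGF2R*, and *MRPL23* and *PQBP1* (both 0.852) followed *IGFBP6*. *CLDN2*, a claudin of tight junctions, fell with -2.03 at 5 h and -0.90 at 11 h. These values are descriptions over libraries and carry no test.

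**Figure D5:**
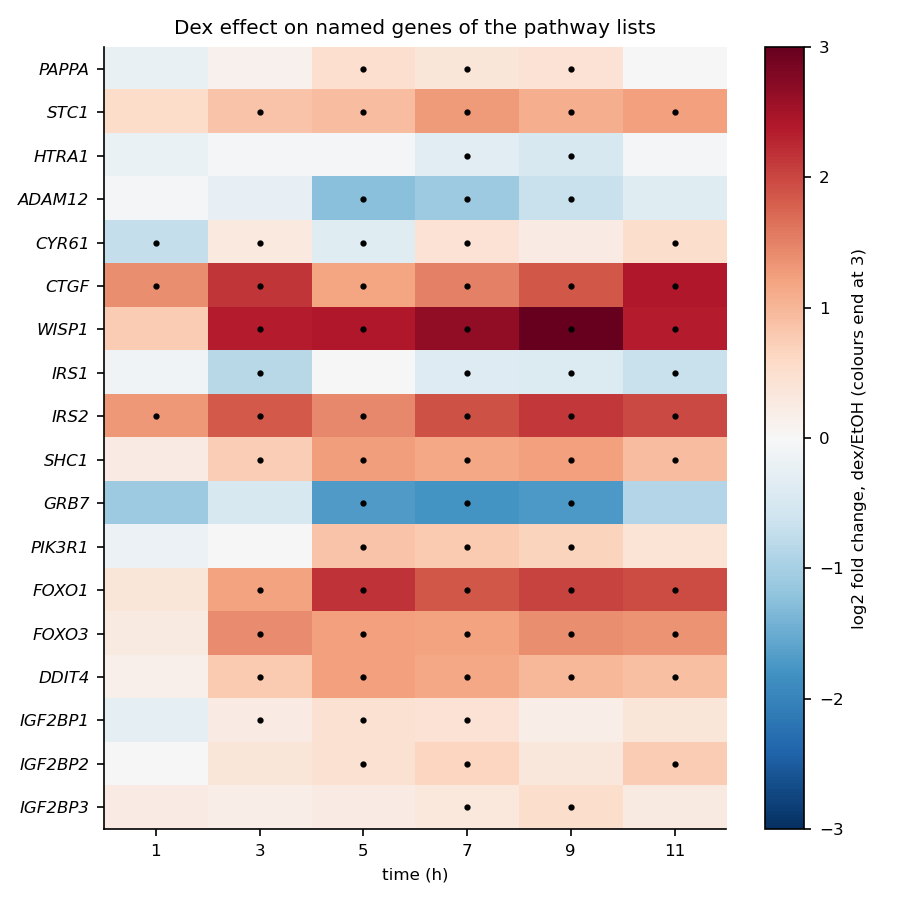
Log2 fold change of dex over EtOH (colour, blue lower and red higher with dex, scale ending at 3) by time in hours for the genes named from the lists of proteases, relatives, adaptors, PI3K signalling and IGF2 mRNA-binding proteins. Dots mark adjusted p at or under 0.1. *IRS2* and *CTGF* were called higher at all 6 time points, and *CYR61* changed direction between them.

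Other genes of the pathway were taken from 6 lists written from general knowledge, but with earlier results of these data known. The lists held 47 genes with enough counts to be tested. Of these, by edgeR, 2 rose and 1 fell at 1 h, 13 and 2 at 3 h, 15 and 6 at 5 h, 18 and 6 at 7 h, 12 and 6 at 9 h and 11 and 2 at 11 h. Over all genes the shares were 0.488% higher and 0.337% lower at 1 h, 7.85% and 5.02% at 3 h and 11.4% and 11.7% at 5 h. They were 13.4% and 12.4% at 7 h, 9.31% and 8.78% at 9 h and 5.39% and 3.29% at 11 h. The ligands were scarce: *IGF2* had 20 to 49 counts per library and was not called by edgeR at any time point. *IGF1* had 0 to 7 counts per library, *IGFALS*, the partner of *IGFBP3* in serum complexes, 0 to 2, and *INS* 0 in every library. At this depth, 0 counts cannot tell a silent gene from one at a very low level.

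Among proteases of the binding proteins and their inhibitors, 5 genes were tested, and at 7 h 3 rose and 2 fell (median log2 fold change 0.36, beside 0.00058 for all genes). Of all genes, 13.4% rose and 12.4% fell at 7 h. Fewer of the 5 were called at other times: 0 at 1 h, while 1 rose at 3 h and 1 at 11 h, 2 rose and 1 fell at 5 h, and 2 rose and 2 fell at 9 h. *STC1*, which codes for an inhibitor of PAPPA, rose from 3 h on, by 1.28 ± 0.11 on the log2 scale at 7 h (43.4 against 17.9 mean CPM, adjusted p = 3.89e-11, edgeR). *PAPPA*, the protease of IGFBP4, rose at 5, 7 and 9 h, with 0.51 ± 0.11 at 5 h (322 against 226 mean CPM, adjusted p = 0.000309). *ADAM12*, which can cut IGFBP3 and IGFBP5, fell at the same times, with -1.25 ± 0.17 at 5 h (9.11 against 21.6 mean CPM, adjusted p = 1.77e-07). *HTRA1*, a secreted serine protease, fell at 7 and 9 h (-0.34 ± 0.12 and -0.48 ± 0.14).

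Relatives of the binding proteins and the receptors gave 7 tested genes, of which 3 rose at 11 h, as did 5.39% of all genes. At 1 h 1 rose and 1 fell, at 3 h 3 rose, and at 5 h 2 rose and 1 fell. At 7 h 3 rose and 1 fell, and at 9 h 2 rose, beside the shares of all genes given above. The median at 11 h was 0.85 (all genes 0.01), which is the value of *NOV*, a scarce gene that was not called (1.91 against 1.05 mean CPM). At 5 h the median was -0.26 and at 9 h 0.25. The matricellular genes *CTGF* and *WISP1*, whose proteins begin with a domain like that of the binding proteins, rose most: *CTGF* by 2.40 ± 0.16 at 11 h (123 against 23.4 mean CPM, adjusted p = 9.74e-07) and *WISP1* by 3.37 ± 0.34 at 9 h (6.98 against 0.673 mean CPM, adjusted p = 5.32e-06, edgeR). Their relative *CYR61* fell at 1 h (-0.71 ± 0.13) and 5 h (-0.36 ± 0.13) and rose at 3 h (0.30 ± 0.11), 7 h (0.44 ± 0.09) and 11 h (0.53 ± 0.16).

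The list of adaptors that bind the activated receptors, which also holds the phosphatase gene *PTPN1*, gave 9 tested genes. Of these, 1 rose at 1 h, 2 rose and 2 fell at 3 h, and 3 rose and 2 fell at 5 h. At 9 h 3 rose and 3 fell, and at 11 h 3 rose and 2 fell, beside the shares of all genes given above. At 7 h 3 rose and 3 fell (median -0.15), beside 13.4% of all genes higher and 12.4% lower. *PTPN1* was among those that rose (0.37 ± 0.10). *IRS2* rose at every time point, from 1.31 ± 0.12 at 1 h to 2.12 ± 0.11 at 9 h (169 against 38.7 mean CPM, adjusted p = 1.30e-08, edgeR). *IRS1*, its close relative, fell at 3 h (-0.83 ± 0.13), 7 h, 9 h and 11 h (-0.67 ± 0.15, adjusted p = 0.0175) and stood at -0.01 ± 0.12 at 5 h. *SHC1*, which links receptors to RAS, rose from 3 h on, by 1.25 ± 0.10 at 5 h. *GRB7* fell at 5, 7 and 9 h, by 1.80 ± 0.33 on the log2 scale at 7 h, from 5.26 to 1.41 mean CPM.

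The list of PI3K, AKT and FOXO signalling gave 22 tested genes. At 1 h 0 of them were called (0.824% of all genes), and at 3 h 6 rose, beside 7.85% of all genes. At 5 h 6 rose and 2 fell (median 0.21), beside 11.4% and 11.7% of all genes. At 7 h 6 rose, beside 13.4%. At 9 h 4 rose and 1 fell, beside 9.31% and 8.78%, and at 11 h 3 rose, beside 5.39%. *FOXO1* and *FOXO3*, transcription factors that AKT holds out of the nucleus, rose from 3 h on, with 2.16 ± 0.16 for *FOXO1* at 5 h (32.7 against 7.35 mean CPM, adjusted p = 1.29e-14) and 1.41 ± 0.11 for *FOXO3* at 3 h (104 against 39.1 mean CPM, adjusted p = 2.53e-11, edgeR). *DDIT4*, an inhibitor of mTORC1, rose from 3 h on, by 1.23 ± 0.11 at 5 h. *PIK3R1*, which codes for a regulatory subunit of PI3K, rose at 5, 7 and 9 h (0.87 ± 0.16 at 5 h). All 3 genes of the IGF2 mRNA-binding proteins rose at 7 h, as did 13.4% of all genes. The changes were 0.64 ± 0.14 for *IGF2BP2*, 0.42 ± 0.07 for *IGF2BP1* and 0.32 ± 0.09 for *IGF2BP3*. Fewer of the 3 were called at other times: 0 at 1 h, while 1 rose at 3 h (7.85% of all genes) and 2 at 5 h (11.4%). At 9 h 1 rose (9.31%) and at 11 h 1 rose (5.39%).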

How the data were processed

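The deposited values are counts: the authors aligned 50-base single-end reads (stranded, poly-A selected) to the transcripts of GENCODE 19 with Bowtie and tallied them with samtools idxstats, with no normalization. The submitters' processing notes name hg19 and SAMtools. How reads matching several transcripts were placed is not given in the sources used here. The treatment text of the labels gives 1 h for every library, and the duration in the same labels, 1 to 11 h, was used. The methods state triplicates and the labels give 2 replicates. Of 119207 transcripts, 110262 (94.1% of counts) were joined to GENCODE 29 genes (GRCh38, coordinates and lengths as printed) by identifier without version and summed, and 8945 stayed single. edgeR 4.0.16 (R 4.3.3) was run with TMM, filterByExpr over 12 groups, and the robust quasi-likelihood test. Each time point was fitted alone. Each SE was derived from the fold change (log2) and its F statistic. The median library held 10109393.5 counts, and the biological coefficient of variation was 6.48% (7 h) to 12.7% (11 h). The alternatives were DESeq2 1.42.0, its size factors, no filter, a single fit of all 24 libraries, a minimum of 10 counts per library, a replicate block, a threshold of 0.05, the most counted transcript, and leaving out each library. Scripts were tested on simulated data. Figures were drawn with matplotlib 3.10.9. The genes and lists were chosen with earlier results of these data known. Named list genes passed at 2 or more consecutive time points, at most 4 a list by mean log2 fold change. The 2 most alike genes are named by Pearson's r of log2 CPM (prior count 2) for genes called at 2 consecutive time points.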

Additional observations from a re-analysis of the deposited data

Results flagged for a closer look

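The dex effect differed between time points by edgeR's interaction test over 24 libraries, adjusted over all genes, for 3 of the 10 genes. *IGFBP3* had an adjusted p of 8.80e-12, with log2 fold changes from -0.12 at 1 h to -2.63 at 5 h and -1.41 at 11 h. *IGFBP1* had an adjusted p of 0.00999, with 1.54 at 3 h, 0.10 at 7 h and 1.66 at 11 h. *IGF1R* had an adjusted p of 0.0352, with 0.13 at 3 h and -0.43 at 11 h. With 2 libraries in a group, no single library could be tested as standing apart.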

How the results depend on the processing

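Of 708 alternative values for the 10 genes by time point, 633 stayed on their side of the threshold or were uncalled in both, 59 fell short of it, 16 newly passed it and none of the called ones changed sign. The count of called genes at 5 h (5) went to 1 with DESeq2, 3 without a filter, 2 at a threshold of 0.05 and 2 with the most counted transcript. At 7 h (6) it was 3 in the fit over 24 libraries. At 9 h (2) it was 1 with DESeq2, at a threshold of 0.05 and with the most counted transcript. At 11 h (4) it was 2 at a threshold of 0.05 and with the most counted transcript. Without a filter, 7 genes rather than 3 had an effect that differed between time points, and 2 rather than 0 an EtOH level that did (1 with DESeq2). The cause was not tested. Leaving out each library gave 1 to 2 called genes at 1 h, 3 to 5 at 3 h, 1 to 4 at 5 h, 1 to 5 at 7 h, 1 to 5 at 9 h and 2 to 6 at 11 h, 2 to 7 for the effect between time points, 0 to 0 for EtOH and 5 to 7 for the mean effect. A replicate block changed 3 single calls, *IGFBP6* at 9 h (-0.54, adjusted p = 0.0474) and at 11 h (0.66, adjusted p = 0.0730) and *IGFBP4* at 11 h (0.37, adjusted p = 0.0445), and ended none. The paper describes the EtOH control as paired, and the main test did not use the replicate numbers. Deviations of same-numbered dex and EtOH libraries correlated between -0.0588 and 0.135, over 0.1 at 2 of 6 time points. These correlations cannot settle whether the libraries were paired by number. Counts under about 100 per library, as for *IGFBP1*, *IGFBP5* and *IGFBP6*, limit what could be called.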
